A study of Homo sapiens with 11 samples.

Results

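The genes described here are 10 members of the ATF4 stress programme and the serine synthesis route: ATF4, DDIT3, TRIB3, CHAC1, DDIT4, SESN2, ASNS, PHGDH, PSAT1 and SHMT2. They were taken by gene symbol from a deposited table of 60605 features, each symbol matched 1 row, and all 10 were among the 18828 genes tested. The table held 11 polyadenylated RNA libraries made from ARPE-19 cells, a human line that derives from retinal pigment epithelium (RPE) and is widely used as its model. Every library came from a stable line that had expressed an introduced open reading frame for 4 days: GFP, a fluorescent protein that served as control (n = 3), the reprogramming factors Oct4, Sox2 or Klf4 alone (n = 2 each), or the 3 factors together (OSK, n = 2). The names of all 8 factor libraries also carry the tag mC, whose meaning is not given in the labels, and those of the GFP libraries do not, so whatever it stands for cannot be told apart from the factors. Per the series description, the data were collected to look at oxidative defence genes that these factors turn on. The labels do not say which promoter drove the reading frames, from which species they came, whether a line was 1 clone, or whether replicates were separate cultures, so p-values measure only the spread between these libraries, which may be technical.

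ATF4 is the transcription factor at the centre of the integrated stress response. Kinases that sense amino acid shortage, unfolded protein, viral RNA or heme deficiency phosphorylate the initiation factor eIF2, general translation falls, and translation of ATF4 rises through upstream reading frames in its messenger RNA. ATF4 then binds, often paired with a C/EBP protein, near genes for amino acid uptake, amino acid synthesis and stress signalling. Because much of its control is translational, the ATF4 transcript is only a partial measure of ATF4 activity. Serine made from a glycolytic intermediate by PHGDH, PSAT1 and PSPH supplies glycine, folate-bound carbon units and the cysteine of glutathione, a main antioxidant of the oxidatively loaded RPE.

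Short stretches before 4 members show the kinds of sequence in view. RefSeq promoter windows (250 bases before to 50 after a start, assembly GRCh38.p14) were given for 9 of the 10 members, with 14 windows in all, and were searched on both strands for 4 motifs. The ATF4 and C/EBP composite core TGATGNAA was in 2 of the 9 members, ASNS and CHAC1, and in 3.62% of 35116 promoters. The KLF site GGGNGTGGC was in 1 member, DDIT4, and in 5.17% of promoters. The octamer ATGCAAAT (1.77% of promoters) and the SOX site CATTGTT (3.33%) were in no member window, which says only that these letters are not there. The ASNS and CHAC1 windows of 30 bases, both inside exons annotated in GENCODE release 29, are shown for the composite core, in capitals, 68 bases before the start in ASNS and 209 before it on the opposite strand in CHAC1.
ASNS, GRCh38.p14 chr7:97872458-97872487, minus strand: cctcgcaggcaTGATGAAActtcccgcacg
CHAC1, GRCh38.p14 chr15:40953251-40953280, plus strand: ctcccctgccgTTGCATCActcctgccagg

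DDIT4 and PSAT1 are shown because, with PHGDH, they had the widest changes of the 10. In DDIT4 the capitals mark the KLF match, which begins 221 bases before the start. The PSAT1 stretch holds none of the 4 motifs. These matches are descriptions of letters, not of binding.
DDIT4, GRCh38.p14 chr10:72273674-72273919, plus strand: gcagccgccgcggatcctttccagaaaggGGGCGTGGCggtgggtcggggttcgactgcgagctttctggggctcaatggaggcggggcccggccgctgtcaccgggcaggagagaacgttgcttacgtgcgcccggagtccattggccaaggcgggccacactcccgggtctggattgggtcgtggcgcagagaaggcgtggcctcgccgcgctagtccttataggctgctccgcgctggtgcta
PSAT1, GRCh38.p14 chr9:78296875-78297124, plus strand: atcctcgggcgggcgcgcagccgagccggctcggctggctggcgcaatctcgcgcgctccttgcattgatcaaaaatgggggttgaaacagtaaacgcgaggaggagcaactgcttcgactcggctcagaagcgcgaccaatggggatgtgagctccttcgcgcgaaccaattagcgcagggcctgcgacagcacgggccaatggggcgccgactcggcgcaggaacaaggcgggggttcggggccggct

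Values are normalised counts, that is, reads divided by 1 scaling factor for each library. Recovered reads ran from 15053300 to 19791775 per library. The factor genes followed the labels: POU5F1 (Oct4) was 19020 to 67326 in its carriers and at most 445.6 elsewhere, SOX2 17582 to 29141 against at most 197, and KLF4 22142 to 24470 against at most 248. GFP replicate 1 and OSK replicate 1 stood apart, with 42956 and 32493 features detected against 25853 to 26971 in the other 9 libraries, so counts of members are also given without them. Of 405 olfactory receptor genes, 67.65% and 22.96% were detected in these libraries, against 4.94% to 8.15% in the other 9. Low values in them are thus less certain, and the cause was not tested. RPE65 and TTR, defining RPE markers, were under 10 in every library. The summed level of the 13 RPE markers was 33479 to 37188 with GFP, 18376 to 18856 with Oct4, 21438 to 22125 with Sox2, 25724 to 28782 with Klf4 and 15843 to 16144 with OSK. Much of that sum was KRT8 and KRT18, general epithelial keratins. The other 11 markers summed to 12774 to 16482 with GFP, 4277 to 4851 with Oct4, 2454 to 2515 with Sox2, 8127 to 9841 with Klf4 and 5571 to 5943 with OSK, so that Sox2 was lowest. In these bulk samples, fewer cells of a type and less RNA per cell cannot be told apart.

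Each line differed from GFP at some of the 10 genes. Calls went both ways with Sox2, Klf4 and OSK, whereas all calls with Oct4 were falls. Genes were called at a limma adjusted p under 0.05, adjusted over all genes tested. Against GFP, 5 of 10 members were called with Oct4, 5 of them lower and 0 higher. Sox2 gave 7 calls (3 rises, 4 falls), Klf4 9 (4 rises, 5 falls) and OSK 7 (4 rises, 3 falls). Over all genes tested, 37.3% were called with Oct4 (20.1% as rises, 17.2% as falls), 41.6% with Sox2 (21.7% as rises, 19.9% as falls), 33.5% with Klf4 (17.6% as rises, 16.0% as falls) and 39.7% with OSK (19.7% as rises, 20.0% as falls). The factor lines thus differed from GFP widely, and being called is in itself common here. Among genes with a mean of at least 1 CPM (reads scaled to library size), the called share was higher still, 45.7%, 50.5%, 41.7% and 48.9% for Oct4, Sox2, Klf4 and OSK. The median member change was -0.47 (log2) with Oct4, -0.05 with Sox2, -0.13 with Klf4 and -0.01 with OSK, beside medians over all genes tested of -0.02, -0.02, -0.02 and -0.01.

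**Figure D1:**
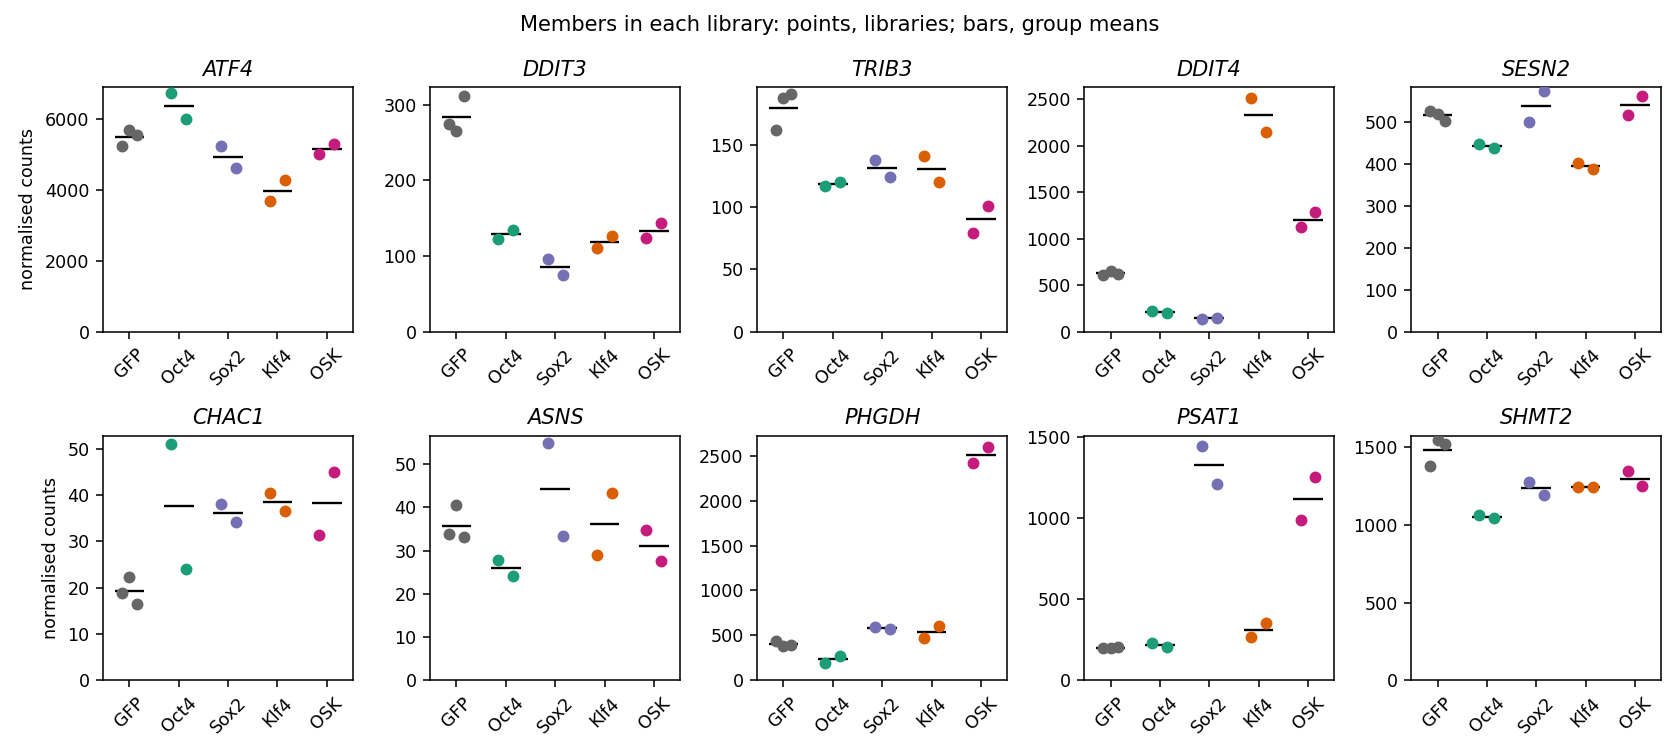
Normalised counts (vertical axis, linear, from 0) of the 10 genes in each of the 11 libraries, by line; points are libraries and bars are group means. DDIT3 is lower in every factor line than in GFP, DDIT4 splits into 2 lines above and 2 below GFP, and PHGDH stands apart in OSK.

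Without GFP replicate 1 the counts called against GFP were 5, 6, 8 and 7 for Oct4, Sox2, Klf4 and OSK, and without both libraries that stood apart they were 5, 6, 8 and 6. Without Sox2 replicate 2 the Sox2 count was 4, and without Klf4 replicate 2 the Klf4 count was 5. DDIT3 and DDIT4 passed in all 4 lines under each of the 21 alternative settings run. PSAT1 did so with Sox2, Klf4 and OSK, and PHGDH with Oct4, Sox2 and OSK. All 4 comparisons share the same GFP libraries. The 12 proliferation markers, among them MKI67 and TOP2A, differed between the lines as well, with summed levels of 2778 to 3098 with GFP, 2898 to 2909 with Oct4, 5305 to 5462 with Sox2, 9577 to 10910 with Klf4 and 9214 to 9570 with OSK. Their part in the member changes was not tested.

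ATF4 itself (chr22:39519695-39522685, plus strand, coordinates here and below from GENCODE release 29, GRCh38) changed little. It read 5257, 5708 and 5549.6 normalised counts with GFP, 6751 and 5995 with Oct4, 5245 and 4614 with Sox2, 3685 and 4279 with Klf4, and 5010.4 and 5310.3 with OSK. Only the Klf4 libraries lay clearly below the rest, at a mean of 3982 ± 420 (SD, n = 2) against 5505 ± 229 (SD, n = 3). ATF4 fell with Klf4 by 0.47 on the log2 scale (SE 0.08, limma adjusted p = 0.000342), that is to 72.3% of GFP. With Oct4 both libraries lay above all GFP libraries, a difference of 0.21 that did not pass (SE 0.08, limma adjusted p = 0.0581). That difference passed without Oct4 replicate 2 (0.30, limma adjusted p = 0.0466) and without either Klf4 library (0.21, limma adjusted p = 0.048). The differences with Sox2 (-0.16, limma adjusted p = 0.135) and OSK (-0.09, limma adjusted p = 0.414, 95% interval -0.27 to 0.08) did not pass. In order of level Oct4 came first, then GFP, OSK and Sox2, whose neighbours did not differ by the test, and Klf4 last, below Sox2 (limma adjusted p = 0.0118), a call lost without Sox2 replicate 1 or Klf4 replicate 1 (limma adjusted p = 0.156 and 0.167), with TMM scaling (0.0774) and when just those 4 libraries were fitted (0.0534).

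Among stress effectors, DDIT3 and TRIB3 were lower in every factor line. DDIT3 (chr12:57516588-57521737, minus strand) encodes CHOP, a factor that promotes cell death under prolonged endoplasmic reticulum (ER) stress. Its values were 274, 265 and 311 with GFP, 123 and 134 with Oct4, 96.5 and 75.4 with Sox2, 111 and 127 with Klf4, and 124 and 143 with OSK. No factor library reached the lowest GFP library. DDIT3 fell by 1.13 (log2, SE 0.15, limma adjusted p = 2.28e-05) with Oct4, to 45.3% of GFP. With Sox2 it fell by 1.72 (SE 0.15, limma adjusted p = 1.86e-07), to 30.3%. The change was -1.25 with Klf4 and -1.08 with OSK, at limma adjusted p = 1.07e-05 and 3.13e-05. Sox2 was the lowest of the 5 groups, below Klf4, the next one up (limma adjusted p = 0.0341), while OSK, Oct4 and Klf4 did not differ by the test. The gap between Sox2 and Klf4 no longer passed without Sox2 replicate 2 or Klf4 replicate 2 (limma adjusted p = 0.271 and 0.182), nor in 4 other settings (adjusted p from 0.0729 to 0.129).

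DDIT3 shares 27.2% of its exon bases with MARS1 on the opposite strand, and the strand setting of the counting is not given in the sources used here. MARS1, the methionyl-tRNA synthetase, held 1331 to 2782 reads per library against 86 to 320 for DDIT3. MARS1 did not follow DDIT3: it rose with Sox2 by 0.38 (limma adjusted p = 0.00165), and its other differences from GFP were 0.19 with Oct4, -0.11 with Klf4 and 0.16 with OSK, none of which passed. Other genes overlapping DDIT3 on either strand bring the shared part to 39.6% of its exon bases.

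TRIB3 (chr20:362835-397559, plus strand) encodes a pseudokinase that is induced by ATF4 and CHOP and restrains them in turn. It read 162, 187 and 191 with GFP, 117 and 120.2 with Oct4, 138 and 124 with Sox2, 141 and 120.0 with Klf4, and 79.1 and 101 with OSK. All 8 factor libraries lay below the 3 GFP libraries, and the OSK pair was lowest. TRIB3 fell by 1.00 with OSK (SE 0.16, limma adjusted p = 9.75e-05), to 50.1% of GFP. The fall with Oct4 was 0.59 (limma adjusted p = 0.00765). The falls with Sox2 (-0.45, limma adjusted p = 0.031) and Klf4 (-0.46, limma adjusted p = 0.0347) did not hold under every setting. The Sox2 call was lost without GFP replicate 2 (-0.42), GFP replicate 3 (-0.41), Sox2 replicate 1 (-0.53) or Sox2 replicate 2 (-0.38), at limma adjusted p from 0.0658 to 0.186. The Klf4 call was lost without GFP replicate 2 (-0.43, limma adjusted p = 0.0906), GFP replicate 3 (-0.42, limma adjusted p = 0.1) or Klf4 replicate 2 (-0.34). Both calls were also lost with DESeq2 on recovered reads (adjusted p = 0.0892 and 0.108) and with TMM scaling (limma adjusted p = 0.13 and 0.117). Neither passed with no filter on low values (limma adjusted p = 0.0623 and 0.0704) or with the replicate number as a block (limma adjusted p = 0.103 and 0.114).

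CHAC1 (chr15:40952962-40956519, plus strand), an enzyme that breaks down glutathione, went the other way at very low counts. It read 18.9, 22.3 and 16.5 with GFP, 51.1 and 24.0 with Oct4, 38.2 and 34.3 with Sox2, 40.5 and 36.6 with Klf4, and 31.4 and 45.1 with OSK, from 17 to 44 reads per library. No factor library fell as low as a GFP library. CHAC1 rose by 0.89, 0.97 and 0.95 with Sox2, Klf4 and OSK (SE 0.34, limma adjusted p = 0.0493, 0.0389 and 0.0388). With Oct4 the difference was 0.85 (limma adjusted p = 0.0653), and it became 1.37 (limma adjusted p = 0.0142) without Oct4 replicate 2. Of the 21 settings, 5 kept the call with Sox2, 11 with Klf4 and 12 with OSK. The Sox2 call was lost when any of 9 libraries was left out, all but the Oct4 pair (0.79 to 0.99, limma adjusted p from 0.0517 to 0.202). The Klf4 call was lost without GFP replicate 1 or 3, Sox2 replicate 1 or either Klf4 library (0.88 to 1.05, limma adjusted p from 0.05 to 0.175), and the OSK call without GFP replicate 3 or either OSK library (0.69 to 1.2, limma adjusted p from 0.0518 to 0.279). Without both libraries that stood apart, none of the 3 passed (limma adjusted p = 0.0678, 0.0537 and 0.0532).

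DDIT4 and SESN2 encode stress-induced inhibitors of mTORC1, the kinase complex that drives protein synthesis and growth. DDIT4 (REDD1, chr10:72273920-72276036, plus strand), which hypoxia and DNA damage also induce, split the lines. It read 609, 655 and 615 with GFP, 221 and 206 with Oct4, 135 and 149.8 with Sox2, 2508 and 2147 with Klf4, and 1127 and 1281 with OSK. None of the 5 groups overlapped another. DDIT4 fell by 1.55 with Oct4 (SE 0.09, limma adjusted p = 3.59e-09), to 34.1% of GFP, and by 2.13 with Sox2 (SE 0.09, limma adjusted p = 6.44e-11), to 22.7%. It rose by 1.89 with Klf4 (SE 0.09, limma adjusted p = 5.94e-10), which is 3.72-fold, and by 0.94 with OSK (SE 0.09, limma adjusted p = 8.98e-07), which is 1.92-fold. The Sox2 line minus the Klf4 line gave -4.02 (limma adjusted p = 1.38e-13). DDIT4 shares 41.2% of its exon bases with the antisense gene DDIT4-AS1, for which no row was matched, so reads of the pair cannot be told apart here.

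SESN2 (chr1:28259527-28282491, plus strand), a leucine sensor as well as a stress gene, varied little. It read 526, 518 and 501 with GFP, 447 and 437 with Oct4, 500.4 and 573 with Sox2, 401 and 387 with Klf4, and 516 and 562 with OSK. Oct4 and Klf4 libraries lay below all GFP libraries, whereas the Sox2 pair and the OSK pair each had 1 library above them and 1 at about their level. SESN2 fell with Klf4 by 0.38 (SE 0.09, limma adjusted p = 0.0029), a call that TMM scaling ended (-0.34, limma adjusted p = 0.0517). The differences of -0.22, 0.06 and 0.06 with Oct4, Sox2 and OSK did not pass (limma adjusted p = 0.0619, 0.65 and 0.611). Thus in the Klf4 line the pair of mTORC1 inhibitors moved in opposite directions.

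ASNS (chr7:97852118-97872542, minus strand), the asparagine synthetase and a standard ATF4 target, differed from GFP in no line by the test, at very low counts. It read 33.8, 40.5 and 33.1 with GFP, 27.9 and 24.0 with Oct4, 55.0 and 33.4 with Sox2, 28.9 and 43.4 with Klf4, and 34.7 and 27.5 with OSK, from 21 to 49 reads. Apart from Oct4, each line overlapped GFP. The differences from GFP were -0.45, 0.26, -0.01 and -0.20 for Oct4, Sox2, Klf4 and OSK (SE 0.31, limma adjusted p = 0.291, 0.545, 0.99 and 0.664), with a 95% interval for OSK of -0.86 to 0.46. ASNS shares 44.6% of its exon bases with ENSG00000284707 on the same strand, which took 63 to 152 reads per library, more than ASNS itself. That feature averaged 132 ± 19.0 with GFP (SD, n = 3), 108 ± 21.5 with Oct4, 82.3 ± 2.21 with Sox2, 109 ± 10.7 with Klf4 and 82.3 ± 18.5 with OSK (SD, n = 2 each). The ASNS row therefore measures only part of the locus.

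**Figure D2:**
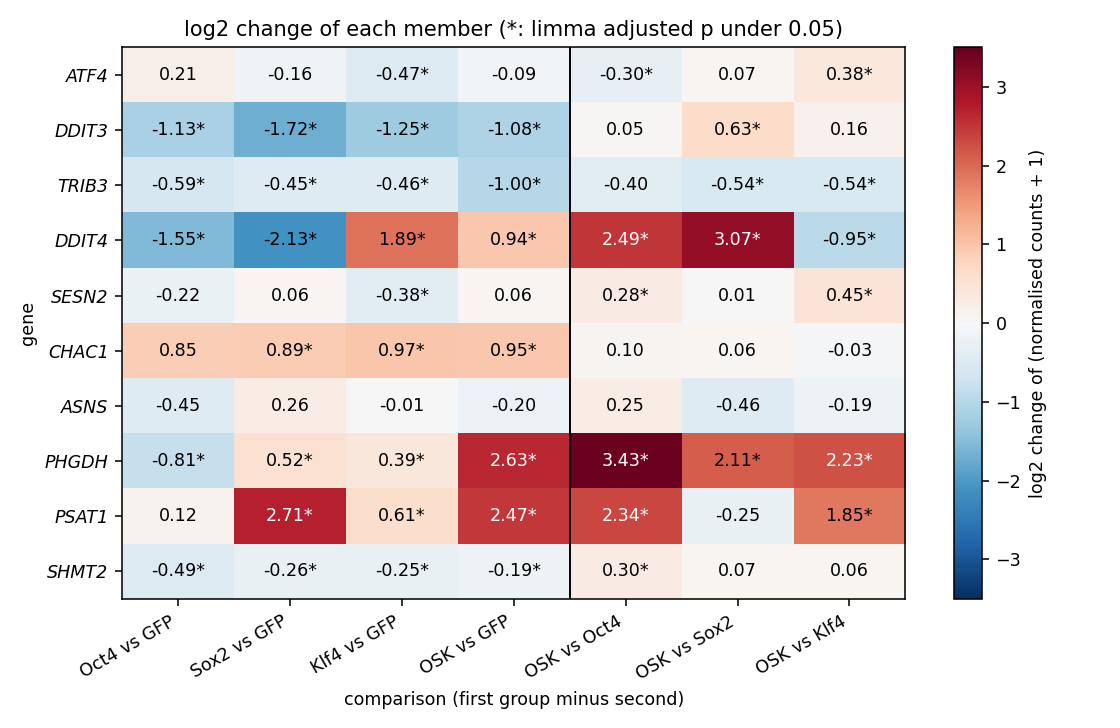
Log2 change of (normalised counts + 1) for the 10 genes (rows) in 7 comparisons (columns, first group minus second), with the value in each cell and an asterisk for a limma adjusted p under 0.05. Rows DDIT3, TRIB3 and SHMT2 are below 0 against GFP in all 4 lines, CHAC1 is above 0 in all 4, and PHGDH is above 2 in all 4 comparisons of OSK, up to 3.43 against Oct4.

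PHGDH and PSAT1, enzymes of serine synthesis, gave the widest rises of the 10 members against GFP. PHGDH (chr1:119648411-119744226, plus strand) catalyses the committed step, from 3-phosphoglycerate. It read 443, 385 and 391 with GFP, 195 and 275 with Oct4, 591 and 574 with Sox2, 471 and 603 with Klf4, and 2422 and 2600.2 with OSK. The OSK pair stood far above all other libraries and the Oct4 pair below them. PHGDH rose by 2.63 with OSK (SE 0.13, limma adjusted p = 3.8e-10), which is 6.18-fold, from 406 ± 31.7 (SD, n = 3) to 2511 ± 126 (SD, n = 2). It rose by 0.52 with Sox2 (SE 0.13, limma adjusted p = 0.00436) and 0.39 with Klf4 (limma adjusted p = 0.03), and fell by 0.81 with Oct4 (SE 0.13, limma adjusted p = 0.000143), to 57.8% of GFP. The Klf4 rise was lost without Klf4 replicate 2 (0.21), GFP replicate 2 (0.36, limma adjusted p = 0.0803) or GFP replicate 3 (0.37, limma adjusted p = 0.0801). It was also lost with no filter on low values (0.39, limma adjusted p = 0.0992) and with the replicate number as a block (0.37, limma adjusted p = 0.071).

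PSAT1 (chr9:78297143-78330093, plus strand), the aminotransferase of the next step, had another pattern. It read 198, 200.3 and 205 with GFP, 232 and 206 with Oct4, 1447 and 1211 with Sox2, 269.5 and 352 with Klf4, and 988 and 1258 with OSK. The lines carrying Sox2 were high and overlapped each other, Klf4 was between, and Oct4 lay just above GFP. PSAT1 rose by 2.71 with Sox2 (SE 0.13, limma adjusted p = 1.32e-10), which is 6.61-fold, by 2.47 with OSK (SE 0.13, limma adjusted p = 5.95e-10), which is 5.59-fold, and by 0.61 with Klf4 (limma adjusted p = 0.00155). The Oct4 difference of 0.12 did not pass (limma adjusted p = 0.5, 95% interval -0.15 to 0.40). PSAT1 pseudogene rows took at most 5 reads in any library.

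PSPH, the phosphatase that completes serine, was not called higher in any line. It read 269, 287 and 318 with GFP, 238 and 197 with Oct4, 289 and 351 with Sox2, 200.1 and 218 with Klf4, and 258 and 311 with OSK. PSPH fell with Oct4 by 0.42 (limma adjusted p = 0.0196) and with Klf4 by 0.47 (limma adjusted p = 0.0113), and its differences with Sox2 (0.13, limma adjusted p = 0.463) and OSK (-0.04, limma adjusted p = 0.861) did not pass. In no factor line were all 3 enzymes of the route called in the same direction.

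SHMT2 (chr12:57229327-57234935, plus strand), the mitochondrial enzyme that turns serine into glycine, was lower in each factor line by a small amount. It read 1379, 1549 and 1521 with GFP, 1064 and 1044 with Oct4, 1278 and 1194 with Sox2, 1245 and 1245 with Klf4, and 1349.6 and 1248 with OSK. Every factor library lay below the lowest GFP library. SHMT2 fell with Oct4 by 0.49 (SE 0.07, limma adjusted p = 5.8e-05), to 71.0% of GFP. The other falls were 0.26 with Sox2, 0.25 with Klf4 and 0.19 with OSK, at limma adjusted p = 0.00852, 0.0142 and 0.0486. TMM scaling ended these 3 calls (-0.19, -0.21 and -0.16). The Sox2 call was also lost without Sox2 replicate 2 (-0.21). The Klf4 call was also lost without either Klf4 library (-0.25 each) or GFP replicate 2 (-0.22, limma adjusted p = 0.0527), and with the replicate number as a block (-0.23, limma adjusted p = 0.0631). The OSK call was kept in 5 of the 21 settings and was lost without any single library but GFP replicate 1, with values down to -0.13 (limma adjusted p = 0.323) without OSK replicate 2.

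**Figure D3:**
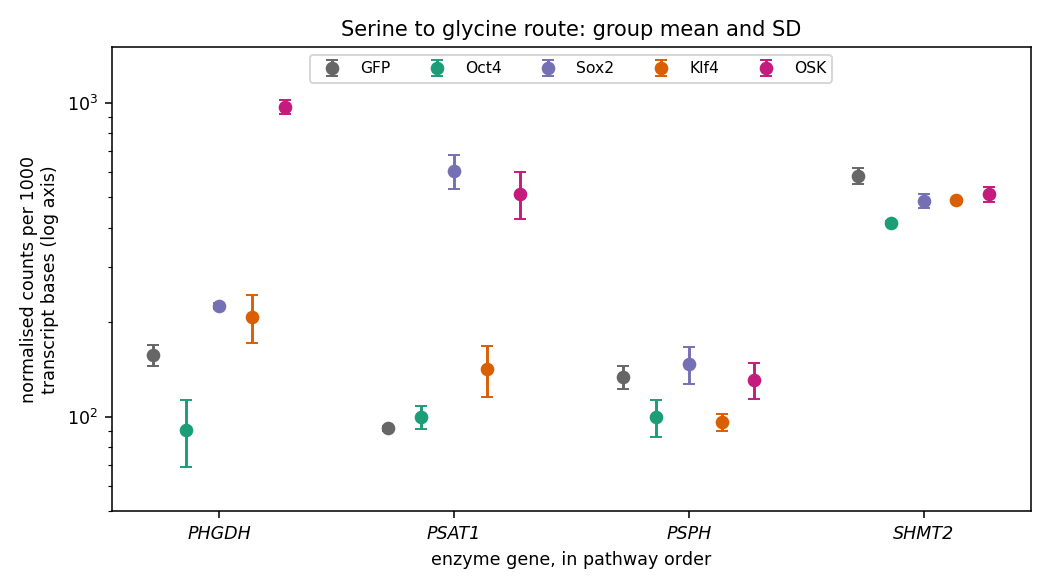
Normalised counts per 1000 bases of the principal transcript (vertical log axis) for PHGDH, PSAT1, PSPH and SHMT2 in pathway order, as group means with SD (n = 3 for GFP, n = 2 for the others). PHGDH spreads from 90.9 in Oct4 to 971 in OSK, PSAT1 is high in Sox2 and OSK, and PSPH and SHMT2 vary less.

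Levels per transcript length allow the genes to be set side by side. Per 1000 bases of the principal transcript, PHGDH averaged 157 in GFP, 90.9 in Oct4, 225 in Sox2, 208 in Klf4 and 971 in OSK. PSAT1 averaged 91.9, 100, 607, 142 and 513 in the same order, and PSPH 134, 99.8, 147, 96.0 and 131. PSPH was thus between PHGDH and PSAT1 in GFP and well under both in OSK. On this scale ATF4 ranked first of the 10 members in every line, with 2730 in GFP, whereas DDIT4 moved from rank 3 in GFP to rank 7 in Sox2 and rank 2 in Klf4. ASNS and CHAC1 took the last ranks in every line, at no more than 24.7, but the ASNS row covers only part of its locus, so its rank is no measure of the gene's level.

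OSK was also compared with each single-factor line. Against Oct4, 6 of 10 members were called (5 higher, 1 lower), beside 40.3% of all genes (18.4% higher, 21.9% lower). Against Sox2 4 were called (3 higher, 1 lower), beside 40.5% (20.0% higher, 20.5% lower), and against Klf4 6 (4 higher, 2 lower), beside 21.5% (9.56% higher, 11.9% lower). Without OSK replicate 1 the counts were 4, 3 and 5, and without both libraries that stood apart 5, 3 and 5.

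PHGDH was higher in OSK than in each single line, by 3.43 over Oct4 (limma adjusted p = 4.31e-11), 2.11 over Sox2 (limma adjusted p = 9.5e-09) and 2.23 over Klf4 (limma adjusted p = 1.94e-08), with an SE of 0.14 each. PSAT1 in OSK exceeded Oct4 by 2.34 (limma adjusted p = 2.69e-09) and Klf4 by 1.85 (limma adjusted p = 1.17e-07). Its difference from Sox2, -0.25, did not pass (limma adjusted p = 0.184), with a 95% interval of -0.55 to 0.05.

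DDIT4 in OSK lay between its parts, 2.49 above Oct4 (limma adjusted p = 4.31e-11), 3.07 above Sox2 (limma adjusted p = 4.75e-12) and 0.95 below Klf4 (limma adjusted p = 5.64e-06). OSK cells thus held DDIT4 at 51.8% of the Klf4 line. DDIT3 in OSK was 0.63 above Sox2 (limma adjusted p = 0.00638), a call lost without Sox2 replicate 2 (0.46, limma adjusted p = 0.0854) or OSK replicate 2 (0.53, limma adjusted p = 0.0667), and its differences from Oct4 (0.05) and Klf4 (0.16) did not pass. TRIB3 in OSK was 0.54 below Sox2 (limma adjusted p = 0.0197) and 0.54 below Klf4 (limma adjusted p = 0.0376). DESeq2 on recovered reads lost both (adjusted p = 0.092 and 0.141). The call against Klf4 was also lost with TMM scaling, no filter, only the compared groups and the replicate block (limma adjusted p = 0.0877, 0.0771, 0.108 and 0.0601). Both TRIB3 calls were lost without OSK replicate 1 (-0.37 and -0.36, limma adjusted p = 0.191 and 0.283), that against Sox2 without Sox2 replicate 1 (-0.47, limma adjusted p = 0.122), and that against Klf4 without Klf4 replicate 1 (-0.42, limma adjusted p = 0.244). Against Oct4 the TRIB3 difference of -0.40 did not pass (limma adjusted p = 0.0768), and it passed without OSK replicate 2 (-0.58, limma adjusted p = 0.0412).

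ATF4 in OSK was 0.30 below Oct4 (limma adjusted p = 0.0136) and 0.38 above Klf4 (limma adjusted p = 0.00632). TMM scaling ended both calls (limma adjusted p = 0.108 and 0.1). The first was lost without Oct4 replicate 1 (-0.22, limma adjusted p = 0.151) or OSK replicate 1 (-0.26, limma adjusted p = 0.105), and the second without Klf4 replicate 1 (0.27, limma adjusted p = 0.114) or OSK replicate 2 (0.34, limma adjusted p = 0.0762). SESN2 in OSK exceeded Klf4 by 0.45 (limma adjusted p = 0.00285) in all 21 settings. Its excess over Oct4, 0.28 (limma adjusted p = 0.0269), was lost without either Oct4 library (0.30 and 0.27) or OSK replicate 2 (0.22). That call was also lost with DESeq2 (adjusted p = 0.0929), and with TMM scaling and no filter (limma adjusted p = 0.141 and 0.0768). SHMT2 in OSK was 0.30 above Oct4 (limma adjusted p = 0.00645), a call lost without OSK replicate 1 (0.24) and with TMM scaling (0.29, limma adjusted p = 0.11). For CHAC1 and ASNS no comparison of OSK with a single line passed, and the 95% intervals were as wide as -0.70 to 0.90 for CHAC1 against Oct4.

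Between single lines, members called were 7 for Oct4 against Sox2 (33.4% of all genes), 5 for Oct4 against Klf4 (41.7%) and 5 for Sox2 against Klf4 (40.8%). The first count was 4 without either Oct4 library and 3 without Sox2 replicate 2, when ATF4, DDIT3, SESN2 and SHMT2 no longer passed. It was 4 with TMM scaling and with DESeq2. The count for Oct4 against Klf4 was 3 without Oct4 replicate 2 or Klf4 replicate 2, when PSAT1 and SHMT2 no longer passed, and that for Sox2 against Klf4 was 3 with TMM scaling and when just those 4 libraries were fitted. PHGDH did not differ by the test between Sox2 and Klf4 (0.13, limma adjusted p = 0.522, 95% interval -0.18 to 0.43), whereas PSAT1 was 2.10 higher in Sox2 (limma adjusted p = 6.19e-09). TRIB3, CHAC1 and ASNS were not called in any of these 3 comparisons.

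As a description over the 11 libraries, which share group structure and scaling, members did not vary as a block. Of 45 member pairs, 23 had a log2 Pearson r above 0, with a median r of 0.0399. DDIT3 and TRIB3 (0.635) and PSAT1 and PHGDH (0.717) were alike, and DDIT3 and CHAC1 (-0.774) were opposed. The 3 tested genes most like ATF4 were CLDN23 (0.938), BANP (0.936) and DNAJB6 (0.935), and those most like CHAC1 were FBXO45 (0.928), PDPK1 (0.907) and MPG (0.902). Those most like PSAT1 were SOX2 itself (0.982), which was introduced in the Sox2 and OSK lines, FAM111A-DT (0.982) and TMX1 (0.978). These genes were picked as the highest r among all tested genes with a symbol, so high values are built in.

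Other genes of the pathway are given from lists written by pathway membership, as called counts against GFP for Oct4, Sox2, Klf4 and OSK in that order. Each count is to be read beside the share of all genes tested that was called, 37.3%, 41.6%, 33.5% and 39.7%. Among genes with a mean of at least 1 CPM that share was 45.7%, 50.5%, 41.7% and 48.9%. Of 16 sensors and regulators of eIF2, 2, 3, 3 and 3 were higher and 6, 5, 4 and 2 lower. In all, 50%, 50%, 43.8% and 31.2% of this list were called, near or below the second set of shares. PPP1R15A (GADD34), the phosphatase subunit that reverses eIF2 phosphorylation and is itself an ATF4 target, read 2994, 3718 and 3686 with GFP, 1732 and 1815 with Oct4, 1385 and 1478 with Sox2, 762 and 799 with Klf4 and 745 and 819 with OSK. PPP1R15A fell in every line, with changes of -0.96, -1.27, -2.14 and -2.14 (SE 0.09, limma adjusted p from 5.61e-11 to 4.19e-07). Of the eIF2 kinases, EIF2AK4 (GCN2) rose by 0.94 with Sox2 (limma adjusted p = 1.65e-08) and fell by 0.18 with Klf4 (limma adjusted p = 0.0489). EIF2AK3 (PERK) rose by 0.95 with OSK (limma adjusted p = 3.01e-06) and fell by 0.42 with Sox2 (limma adjusted p = 0.00437). EIF2AK2 (PKR) rose by 0.57, 0.26 and 0.29 with Sox2, Klf4 and OSK (limma adjusted p = 5.91e-06, 0.01 and 0.00345), and EIF2AK1 (HRI) fell with Oct4 and Sox2, with changes of -0.19 and -0.23 (limma adjusted p = 0.0185 and 0.00549). The list's calls with Klf4 were 3 or 4 in place of 7 without either Klf4 or either Sox2 library, those with Sox2 5 in place of 8 without Sox2 replicate 1, and those with OSK 3 in place of 5 without OSK replicate 1.

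Of 15 partner factors and further stress targets 14 were tested, with 3, 2, 2 and 3 higher and 5, 8, 6 and 6 lower. STC2, a secreted stress glycoprotein, fell in all 4 lines, with changes of -1.22, -0.98, -1.73 and -2.0 (SE 0.08, limma adjusted p from 5.58e-11 to 1.05e-07). CEBPB, a binding partner of ATF4, fell with Oct4, Sox2 and OSK, with changes of -1.35, -1.76 and -0.45 (limma adjusted p = 6.26e-09, 2.14e-10 and 0.000534), and its difference of 0.13 with Klf4 did not pass (limma adjusted p = 0.263). ATF3, a stress-induced repressor, rose by 0.72 with Oct4 (limma adjusted p = 0.00279) and fell with Klf4 and OSK, with changes of -1.87 and -1.04 (limma adjusted p = 3.26e-07 and 0.000107), while its difference of -0.34 with Sox2 did not pass (limma adjusted p = 0.118). CTH, which makes cysteine, read 55.6, 57.7 and 48.6 with GFP and 219 and 218 with OSK, a rise of 2.00 (limma adjusted p = 7.81e-07). CTH fell by 0.67 with Oct4 and by 0.67 with Sox2 (limma adjusted p = 0.0146 and 0.0133), and its difference of 0.27 with Klf4 did not pass (limma adjusted p = 0.34). The list's calls with Sox2 were 6 in place of 10 without Sox2 replicate 1.

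Of 8 amino acid transporters, 2, 4, 4 and 3 were higher and 2, 2, 1 and 1 lower. SLC7A11, the cystine carrier, rose by 2.95, 1.45 and 2.55 with Sox2, Klf4 and OSK (limma adjusted p = 1.99e-08, 7.73e-05 and 1.23e-07), and its difference of -0.02 with Oct4 did not pass (limma adjusted p = 0.953). Its partner chain SLC3A2 fell in every line, with changes of -1.65, -2.24, -0.57 and -1.17 (SE 0.08, limma adjusted p from 4.75e-12 to 3.14e-05). SLC6A9, a glycine carrier, rose with Sox2 by 4.65 (limma adjusted p = 7.16e-06), to 937 and 878 from 90.4, 23.3 and 20.4, of which the first is GFP replicate 1, and its differences in the other lines, -1.08, -0.89 and 0.48, did not pass (limma adjusted p = 0.162, 0.268 and 0.562). The cystine carrier and its partner chain thus moved in opposite directions in 3 lines, though SLC7A11 had only 22 to 28 reads per library with GFP. SLC7A5, another transporter of the list, averaged 9633 with GFP, 3408 with Oct4, 5790 with Sox2, 16910 with Klf4 and 12040 with OSK. It fell with Oct4 and Sox2, as SLC3A2 did, with changes of -1.49 and -0.72 (limma adjusted p = 2.89e-08 and 6.06e-05). The list's calls with OSK were 2 in place of 4 without either OSK library.

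Of 8 other amino acid synthesis enzymes, 3, 3, 4 and 4 were higher and 0, 0, 2 and 2 lower. BCAT1, the branched-chain aminotransferase, read 348, 359 and 375 with GFP and 4698 and 5692 with OSK, and rose by 0.70, 2.93, 1.74 and 3.84 (SE 0.11, limma adjusted p from 7.92e-13 to 0.000122). PCK2, which makes phosphoenolpyruvate in mitochondria, rose by 1.81 and 1.61 with Oct4 and OSK (limma adjusted p = 2.33e-06 and 7.58e-06), and its differences of 0.23 and 0.50 with Sox2 and Klf4 did not pass (limma adjusted p = 0.38 and 0.0664). Of 19 serine, glycine and folate enzymes, 2, 6, 9 and 7 were higher and 5, 3, 3 and 2 lower. MTHFD1L, the mitochondrial formate-producing enzyme, rose in all lines, by 0.37, 1.16, 2.01 and 2.07 (SE 0.08, limma adjusted p from 4.17e-11 to 0.00259), and SHMT1, the cytosolic partner of SHMT2, fell with Oct4, Sox2 and OSK, with changes of -0.71, -0.87 and -0.22 (limma adjusted p = 1.36e-06, 1.01e-07 and 0.0244), and rose by 0.25 with Klf4 (limma adjusted p = 0.0173). TYMS, which makes thymidylate for DNA replication, is among the folate genes and rose by 0.78, 0.77 and 0.63 with Sox2, Klf4 and OSK (limma adjusted p = 0.000638, 0.000955 and 0.0036), the lines in which the proliferation markers were also high. With Oct4 the TYMS difference of -0.11 did not pass (limma adjusted p = 0.634). Calls among the folate enzymes were 5 in place of 9 with Sox2 without Sox2 replicate 1, 6 in place of 12 with Klf4 without Klf4 replicate 1 and 5 in place of 9 with OSK without OSK replicate 1, and those of the amino acid enzymes with Sox2 were 1 in place of 3 without Sox2 replicate 2.

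Of 13 cytosolic tRNA synthetases reported as ATF4 targets, 4, 4, 2 and 6 were higher and 5, 4, 3 and 2 lower, and of 7 others 1, 1, 0 and 1 were higher and 3, 2, 2 and 1 lower. GARS1, for glycine, rose by 0.21, 0.36 and 0.94 with Oct4, Sox2 and OSK (limma adjusted p = 0.0211, 0.000479 and 2.15e-08), with a difference of -0.08 with Klf4 that did not pass (limma adjusted p = 0.409). WARS1, for tryptophan, rose in all 4 lines, by 0.44, 0.74, 0.79 and 0.83 (limma adjusted p from 1.87e-07 to 0.000167). LARS1, for leucine, fell in all 4 lines, with changes of -0.43, -0.28, -0.31 and -0.41 (limma adjusted p from 0.00011 to 0.00291). The median change of the reported ATF4 targets among them was -0.08, -0.05, -0.06 and 0.16, and that of the others -0.16, -0.15, -0.13 and -0.03. The few calls among the others depended on single libraries: with Sox2 they were 5 without GFP replicate 1 and 1 without GFP replicate 3 or Sox2 replicate 1, with Klf4 0 or 1 without GFP replicate 2 or 3 or either Klf4 library, and with OSK 4 without GFP replicate 1 and 1 without either OSK library.

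Of 19 ER chaperones and other ATF6 or XBP1 targets, 4, 13, 4 and 8 were higher and 2, 1, 0 and 0 lower, with median changes of 0.16, 0.43, 0.12 and 0.24. The called shares were 31.6%, 73.7%, 21.1% and 42.1%, of which only that with Sox2 was well above the share over all genes. ERN1 (IRE1, an ER stress sensor) rose by 0.88, 1.06 and 0.36 with Oct4, Sox2 and OSK (limma adjusted p = 2.02e-05, 2.08e-06 and 0.0234), and its difference of 0.27 with Klf4 did not pass (limma adjusted p = 0.0884). DNAJC3, a cochaperone, rose in all 4 lines, by 0.49, 0.82, 0.36 and 0.62 (SE 0.06, limma adjusted p from 4.21e-08 to 0.000441). SDF2L1, an ER chaperone component, rose by 0.53, 0.63 and 0.80 with Sox2, Klf4 and OSK (limma adjusted p = 0.00286, 0.00114 and 9.82e-05), and its difference of 0.12 with Oct4 did not pass (limma adjusted p = 0.513). Without OSK replicate 1 the OSK calls were 5 in place of 8. Of the 12 proliferation markers, 3, 9, 12 and 11 were higher and 2, 0, 0 and 0 lower, with median changes of 0.11, 1.09, 2.09 and 2.03, and the 5 calls with Oct4 were 2 without Oct4 replicate 1.

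**Figure D4:**
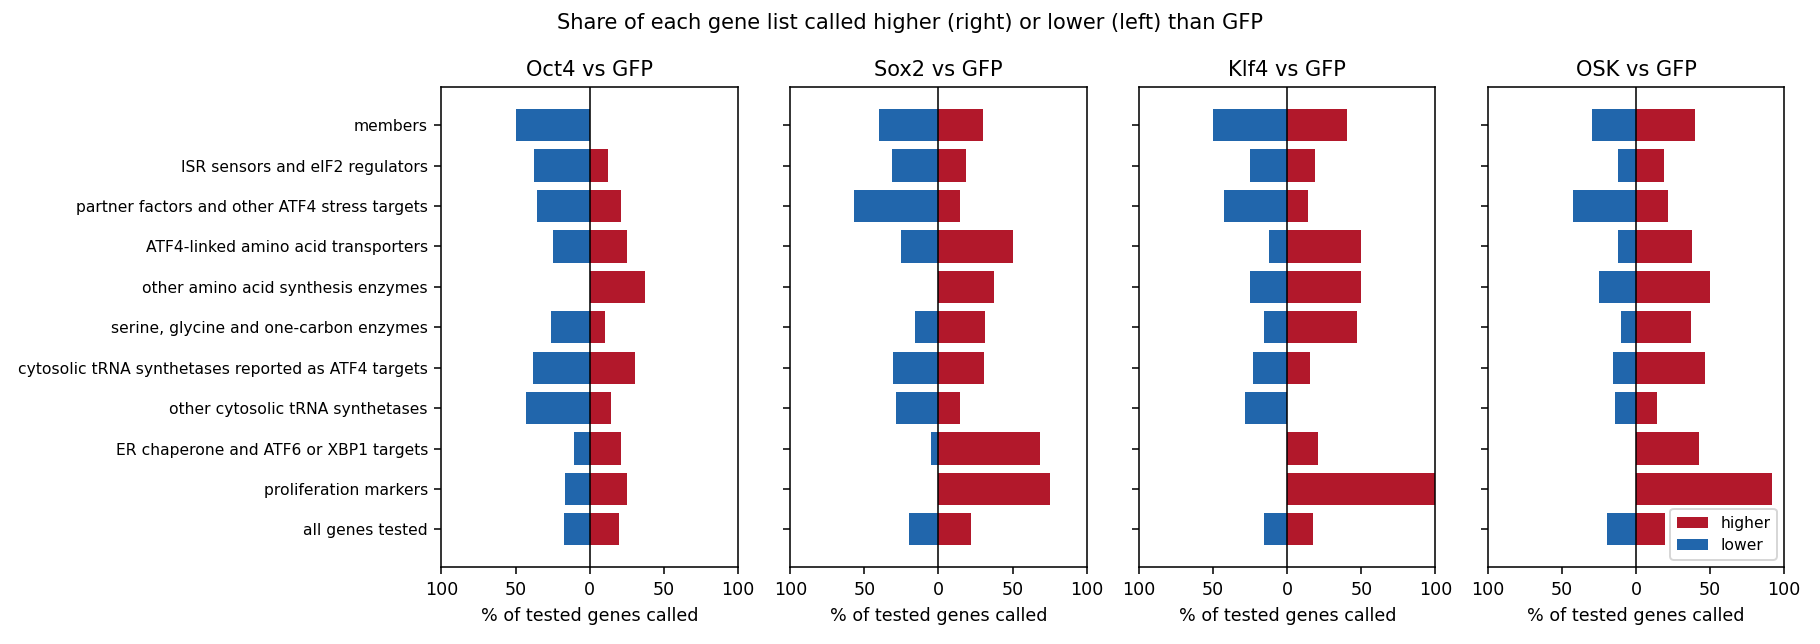
Share of tested genes called higher (red, right) or lower (blue, left) than GFP, in percent on both sides of 0, for the 10 members, 9 gene lists and all genes tested, by factor line. Proliferation markers reach 100% higher in Klf4, and ER chaperone genes are mostly higher in Sox2 (13 of 19).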

How the data were processed

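Per the labels' protocols, oligo(dT)-enriched RNA went into a NEBNext Ultra II library kit. STAR 2.7.1a and featureCounts 1.6.2 are named per the submitters' processing notes, with the builds GRCh38, hg38, GRCm38 and mm10. The build used for these libraries, the annotation and the strand setting are not given in the sources used here. The deposited values are a signal, gene counts that the authors divided by a factor per library: values were whole multiples of 1 read (100% of values checked, tolerance 0.0061; the value of 1 read was 0.8562 to 1.1612), so whole reads were recovered. For 2 GFP libraries that value is near 1.

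The main test was limma 3.58.1 (R 4.3.3; trend) on log2(value + 1), which understates changes of low genes, with all 11 libraries in 1 fit, genes reaching a value of 10 in 2 or more libraries, and Benjamini-Hochberg adjustment over the 18828 genes tested. There were 6 residual and 9.21 prior degrees of freedom. The limma fit was planned, with edgeR in its place only for raw counts. The procedure was run on simulated data in which far fewer genes changed than were called here, and only in the Oct4 group. That run therefore does not show how it performs on these libraries. Alternatives were edgeR 4.0.16 (quasi-likelihood) and DESeq2 1.42.0 on recovered reads, TMM scaling over all features, pseudocounts of 0.5 and 5, only the compared groups, no filter, a filter at a mean CPM of 1, a replicate block, each library left out, and, chosen after seeing the data, GFP replicate 1 and OSK replicate 1 left out together.

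The members and lists were chosen with earlier results of these data known. Genes named beyond the members were, per list and comparison with GFP, at most 2 called rises and 2 called falls of largest change whose libraries did not overlap, the 3 genes most correlated with ATF4, CHAC1 and PSAT1, and the factor genes. Further values of MARS1 and PSPH were added for an overlap and for the route. The text names only some of the genes that this rule picks, chosen with their values known, and gives each in all 4 lines. A gene that it picks is not reported here. Lists were ISR sensors, partner factors, transporters, amino acid enzymes, folate enzymes, tRNA synthetases (2 lists), ER chaperones, proliferation, RPE, pluripotent and fibroblast markers. Summed pluripotent markers were 423 to 571 with GFP and 379 to 402 with Oct4. They were 194 to 294 with Sox2, 378 to 403 with Klf4 and 272 to 373 with OSK. Summed fibroblast markers were 16070 to 22261 with GFP, 24895 to 26734 with Oct4 and 27061 to 29556 with Sox2. With Klf4 and OSK they were 8376 to 9758 and 5881 to 6651. COL1A2, COL3A1, DCN and LUM were at most 27.8 in every library, so PDGFRB, TAGLN, COL1A1 and ACTA2 made up nearly all of that sum. PDGFRB averaged 11260 with GFP, 8609 with Oct4, 6434 with Sox2, 6712 with Klf4 and 4807 with OSK. Its changes with Oct4 and Sox2 were -0.39 and -0.81. TAGLN rose with Oct4 and Sox2 (1.71 and 1.88) and fell with Klf4 and OSK (-1.85 and -2.48). COL1A1 averaged 3856 with GFP, 3082 with Oct4, 7699 with Sox2, 1159 with Klf4 and 676.8 with OSK. ACTA2 rose with Oct4 and Sox2 (2.76 and 1.99).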

Additional observations from a re-analysis of the deposited data

How the results depend on the processing

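Over 2100 member values recomputed under 21 settings, 1944 stayed on the same side of the threshold. Of the others, 150 no longer passed and 6 newly passed, and 0 values changed direction with a call. Values without a call could change sign, as ASNS did with Klf4 against GFP (-0.29 to 0.28 with single libraries left out). Of 44 member calls in the 7 comparisons reported with OSK or GFP, 27 passed in every setting. With TMM scaling over all features, members called in OSK against Oct4 were 3 in place of 6, list calls summed over the 4 lines were 17 in place of 28 for eIF2 sensors and regulators, and 3 in place of 11 for the other tRNA synthetases. With the replicate number as a block, members called with Klf4 were 5 in place of 9, and the other tRNA synthetases 7. Labels do not say that a number marks a shared batch. The differences between replicates 1 and 2 correlated between groups from -0.0693 to 0.0418, except 0.412 for GFP and OSK. The replicates 1 of GFP and OSK are the libraries that stood apart in features detected. Whether they share a batch was not tested. When single libraries were left out, members called ranged from 4 to 7 with Sox2 (4 without Sox2 replicate 2), from 5 to 9 with Klf4 (5 without Klf4 replicate 2), and the other tRNA synthetases from 7 to 16 (7 without GFP replicate 3). The cause was not tested. A lone library left in a group was assumed to vary like the others. Counts per list and line that moved by over 1.5 times included, with no filter or the block, 5 in place of 9 folate enzymes with Sox2, and with TMM scaling 5 in place of 9 reported synthetase targets with Oct4. TMM scaling moved the median of all genes by at most 0.07. Depth limits ASNS and CHAC1, at 17 to 49 reads. Intervals use 1 spread per gene, pooled over all groups of 2 or 3 libraries and drawn towards that of other genes.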
